A study of Schizosaccharomyces pombe with 80 samples.

Results

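The left subtelomere of chromosome II is the outermost stretch of the left arm of the second chromosome of Schizosaccharomyces pombe, taken here as its first 100 kb. Members were all listed H3K9me2 peaks that overlapped these 100 kb in the coordinates of build ASM294v2, and 477 of the 7203 peaks listed genome-wide did so. That is 6.62% of the peaks in a window that makes up 0.795% of the genome. The peaks lay in all 65 immunoprecipitation lists that held any peak, and in 0 of the 9 lists made from input chromatin.

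The study asked whether holding RNA polymerase II in paused states lets heterochromatin form at new places, and its H3K9me2 profiles also cover the chromosome ends. The isolate groups were grown at 30 °C and all lacked Epe1 (epe1Δ, epe1delta in the labels), a JmjC-domain protein that counteracts silencing. They were 15 isolates of epe1Δ with the pDUAL-nmt1 vector alone, 13 of epe1Δ tfs1DN, 12 of epe1Δ ago1Δ tfs1DN and 15 of seb1-1 epe1Δ tfs1DN. The tfs1DN allele encodes TFIIS altered so that it acts against the wild-type factor, which normally helps a backtracked polymerase to resume. It was driven from the integrated, thiamine-repressible nmt1 promoter, and isolates were selected on thiamine plates, so its dose in these cells rests on a repressed promoter. From RNA-seq in thiamine the study reported leaky repression, with a minor share of tfs1 transcripts from tfs1DN and most from the wild-type allele. Ago1 is the Argonaute of the RNA interference pathway, and Seb1 is an RNA-binding protein of transcription termination, here in its seb1-1 allele. Untransformed parents were profiled with the isolates (2 lists with peaks for epe1Δ, 3 for epe1Δ ago1Δ and 1 for seb1-1 epe1Δ). A separate pair of strains at 37 °C carried pfs2-11, an allele of a 3′ end cleavage and polyadenylation factor, or pfs2+, with 2 samples each. Each isolate is a clone, and each library pooled a culture, so fewer cells with the mark and less mark per cell cannot be told apart.

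Heterochromatin of fission yeast carries methylation of histone H3 at lysine 9, placed by the methyltransferase Clr4 and read by HP1-type proteins, which lets the mark spread along the chromosome until it meets a boundary or runs out. At chromosome ends it starts at the telomere and at repeats related to the centromeric ones, and it reaches inward over subtelomeric genes. Epe1 limits that spreading. Many subtelomeric genes encode transporters, cell surface proteins and enzymes of nitrogen or sugar metabolism, and the ends share long, near-identical sequences.

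The sharing was measured first, because reads that match several places equally well were put at a single one of them. Of the 50-mers of the window, 39.9% occurred more than once in the genome. They fell into runs from 0 to 29.488 kb, from 54.641 to 56.779 kb, from 76.443 to 77.295 kb and from 91.636 to 100 kb, while the stretches from 30 to 50 kb and from 60 to 70 kb held 0%. The outermost genes (SPBC1348.15 to SPBC1348.06C) shared 95.4% of their 50-mers with the right end of chromosome II, and SPBC1348.08C to SPBC1348.10C shared 98.7% with the left end of chromosome I.

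Upstream sequences of the 3 innermost genes with a peak show where such copies match and where they part. Each is set beside that of its counterpart at an end of chromosome I, and only that of SPBPB8B6.05C lies within a repeated run. Each sequence is the 180 bases before the annotated start of the gene, read 5′ to 3′ on the strand of the gene from RefSeq assembly ASM294v3. Capitals mark, on either strand, the promoter box TATAAA or GATAAG, the letters read by zinc-finger factors of the GATA family. SPBPB8B6.05C, an L-asparaginase gene, is at II:55568-55747, SPAC977.12 at I:56312-56491, fex2 (fluoride exporter) at II:57121-57300, fex1 at I:54757-54936, SPBPB21E7.09 (L-asparaginase) at II:76116-76295 and SPAC186.03 at I:5534999-5535178.
SPBPB8B6.05C: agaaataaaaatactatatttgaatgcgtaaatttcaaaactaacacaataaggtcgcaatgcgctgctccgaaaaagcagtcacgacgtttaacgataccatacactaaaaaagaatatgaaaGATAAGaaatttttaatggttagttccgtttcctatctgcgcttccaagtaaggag
SPAC977.12: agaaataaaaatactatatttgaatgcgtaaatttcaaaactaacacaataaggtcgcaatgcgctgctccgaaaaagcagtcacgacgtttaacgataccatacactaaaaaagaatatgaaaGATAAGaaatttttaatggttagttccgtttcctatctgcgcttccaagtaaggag
fex2: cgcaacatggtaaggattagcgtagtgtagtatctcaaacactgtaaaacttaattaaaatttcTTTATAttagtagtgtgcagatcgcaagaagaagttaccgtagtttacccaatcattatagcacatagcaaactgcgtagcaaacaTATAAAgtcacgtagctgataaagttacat
fex1: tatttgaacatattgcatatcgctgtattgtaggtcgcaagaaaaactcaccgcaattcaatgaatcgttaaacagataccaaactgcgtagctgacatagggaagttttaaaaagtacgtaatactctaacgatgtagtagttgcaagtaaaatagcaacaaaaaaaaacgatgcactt
SPBPB21E7.09: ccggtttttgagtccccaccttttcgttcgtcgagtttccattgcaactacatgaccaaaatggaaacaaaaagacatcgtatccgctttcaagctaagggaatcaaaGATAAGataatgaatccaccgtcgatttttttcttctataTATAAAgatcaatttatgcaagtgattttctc
SPAC186.03: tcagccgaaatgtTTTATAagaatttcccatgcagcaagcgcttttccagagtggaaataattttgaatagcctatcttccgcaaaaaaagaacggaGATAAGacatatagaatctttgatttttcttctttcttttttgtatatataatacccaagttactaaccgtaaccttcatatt
The upstream sequences of SPBPB8B6.05C and SPAC977.12 were identical over all 180 bases, so reads from this interval cannot be told apart between the ends. Those of fex2 and fex1 matched at 58 of 180 positions, with a longest shared run of 13 bases, and those of SPBPB21E7.09 and SPAC186.03 at 54 positions, with a longest run of 10. TATAAA was present in the same 180 bases of 34.1% of 5112 protein-coding genes and of 16 of the 32 in the window. GATAAG was present in 7.96% of all and in 7 of the 32.

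Each list gives, per peak, the mean coverage of the peak and that of its chromosome, and the quotient of both is called fold here. The 477 peaks were 51 to 30300 bp long with a median of 1001 bp, 237 were shorter than 1 kb, and folds ran from 3.00 to 46.5. The coverage listed for chromosome II was 1.77 to 6.42 in vector isolates, 3.43 to 12.5 in epe1Δ tfs1DN, 13.4 to 34.5 in epe1Δ ago1Δ tfs1DN and 18.9 to 49.0 in seb1-1 epe1Δ tfs1DN isolates. Coverage therefore moved with the groups, and so did batch, meaning here lists that share an input and a parent by their labels. Sequencing runs are not named in those labels. The part of coverage and batch in the differences cannot be told apart from that of genotype.

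**Figure D1:**
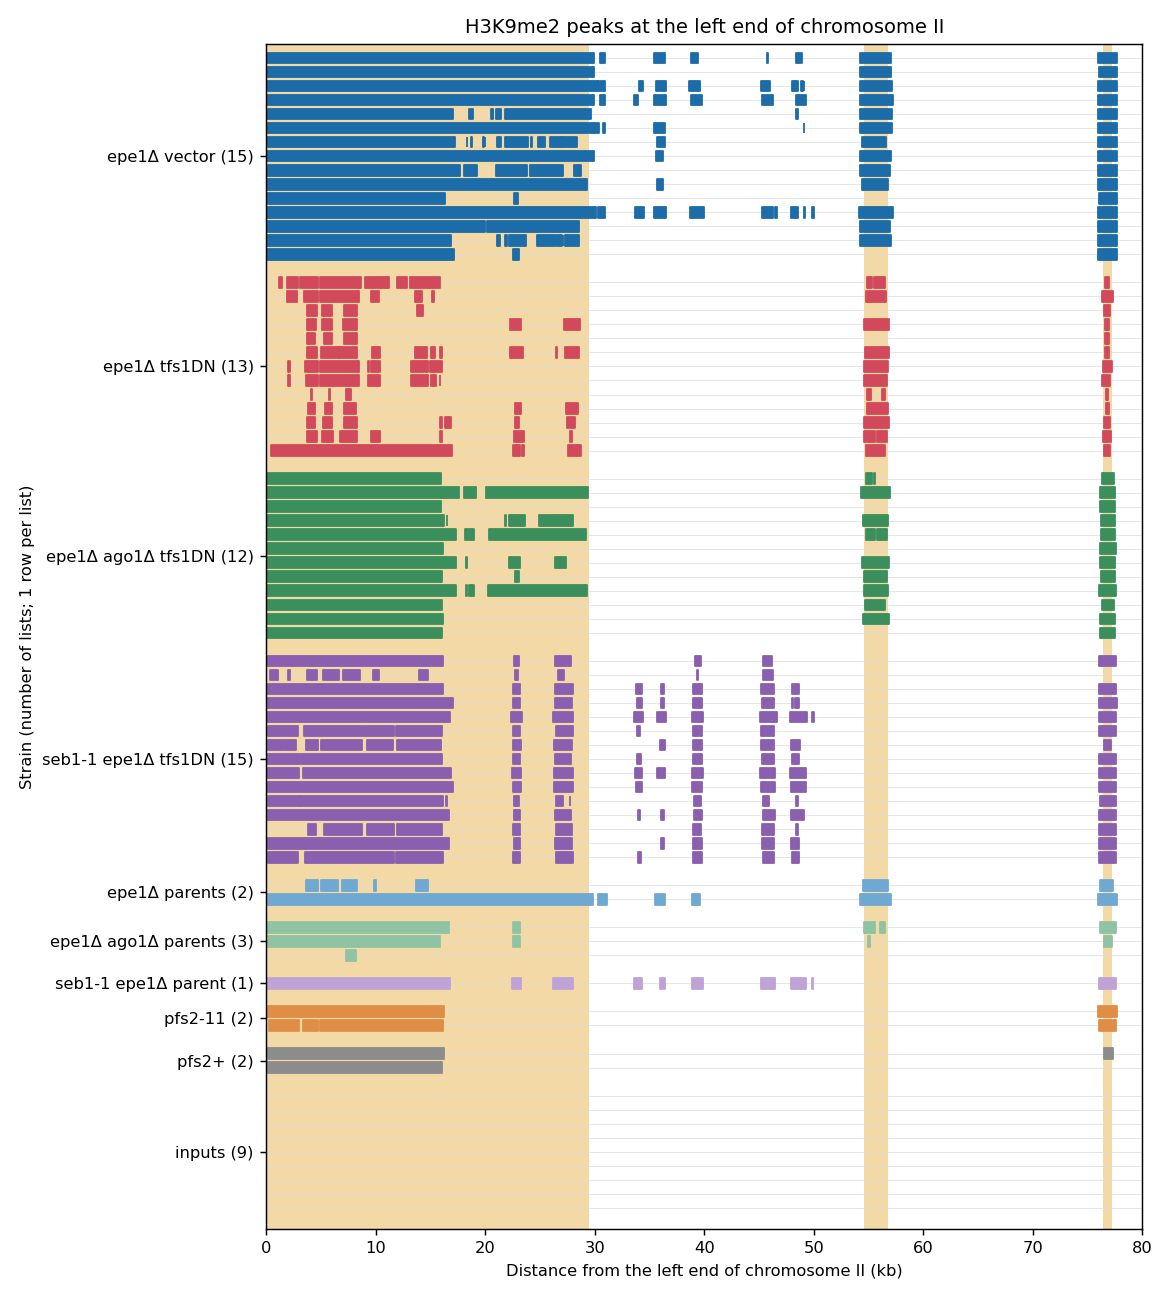
Listed H3K9me2 peaks of every immunoprecipitation list, drawn as horizontal bars against the distance from the left end of chromosome II (kb), with lists grouped by genotype and the runs of repeated sequence shaded in ochre. All vector isolates had a block from the end past 16 kb, epe1Δ tfs1DN isolates covered that stretch in part, and a peak near 76 to 78 kb recurred in 54 of 55 isolates.

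Vector isolates carried the widest domain at this end, and epe1Δ tfs1DN isolates the narrowest. The length under peaks was 18.3 kb in the lowest vector isolate (isolate 11), 34.0 kb in the median isolate and 41.1 kb in the highest, with a mean of 32.2 ± 6.81 kb (SD, n = 15). In epe1Δ tfs1DN it was 1.49 kb in the lowest (isolate 9), 8.17 kb in the median and 20.8 kb in the highest (isolate 13), with a mean of 9.03 ± 5.09 kb (SD, n = 13). All but isolate 13 lay below every vector isolate. Genome-wide, however, epe1Δ tfs1DN lists held 75 to 669 peaks and vector lists 43 to 83. The epe1Δ ago1Δ tfs1DN lists held 29 to 58 and the seb1-1 epe1Δ tfs1DN lists 58 to 88. Isolate 9 had the most peaks (669) and the lowest listed chromosome II coverage of its group (3.43). How far weak enrichment in such lists shortens the length under peaks here was not tested.

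The difference was -23.2 kb (two-sided permutation test with 100000 resamples, p adjusted by Benjamini-Hochberg over 18 tests = 3e-05, which stands for the smallest unadjusted p the resamples can give, 1e-05). Isolates 1 and 13 formed a separate batch of epe1Δ tfs1DN and covered more, at 14.4 and 20.8 kb. The 11 isolates of the other batch averaged 7.48 ± 3.43 kb (SD). The untransformed epe1Δ parents of that batch and of the vector isolates, which carry neither plasmid, differed in the same direction (8.59 and 36.8 kb). Their lists held 337 and 56 peaks genome-wide.

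The other genotypes lay between. epe1Δ ago1Δ tfs1DN isolates covered 17.4 kb (lowest), 19.9 kb (median) and 31.9 kb (highest), with a mean of 22.4 ± 5.55 kb (SD, n = 12). seb1-1 epe1Δ tfs1DN isolates covered 7.97 kb (lowest, isolate 2), 22.6 kb (median) and 26.9 kb (highest), with a mean of 21.6 ± 4.60 kb (SD, n = 15). Both groups overlapped the vector isolates in range.

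In the same permutation tests, epe1Δ ago1Δ tfs1DN was below vector by a mean difference of -9.80 kb (adjusted p = 0.00125), and seb1-1 epe1Δ tfs1DN by one of -10.6 kb (adjusted p = 7.2e-05). Against epe1Δ tfs1DN, epe1Δ ago1Δ tfs1DN covered 13.4 kb more (adjusted p = 3e-05) and seb1-1 epe1Δ tfs1DN 12.5 kb more (adjusted p = 4.5e-05). The difference of seb1-1 epe1Δ tfs1DN from epe1Δ ago1Δ tfs1DN, -0.833 kb, did not pass the test (adjusted p = 0.679).

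Repeated sequence held most of the covered length, so the lengths were also taken over unique sequence alone. Unique bases under peaks averaged 3.95 ± 2.61 kb in vector, 0.204 ± 0.104 kb in epe1Δ tfs1DN, 1.08 ± 0.326 kb in epe1Δ ago1Δ tfs1DN and 4.05 ± 1.52 kb in seb1-1 epe1Δ tfs1DN isolates (SD, n = 15, 13, 12 and 15). On that measure epe1Δ tfs1DN stayed below vector (-3.74 kb, permutation test, adjusted p = 4.5e-05). The difference of seb1-1 epe1Δ tfs1DN from vector became 0.106 kb and did not pass the test (adjusted p = 0.894), and that from epe1Δ ago1Δ tfs1DN became 2.97 kb (adjusted p = 3e-05).

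**Figure D2:**
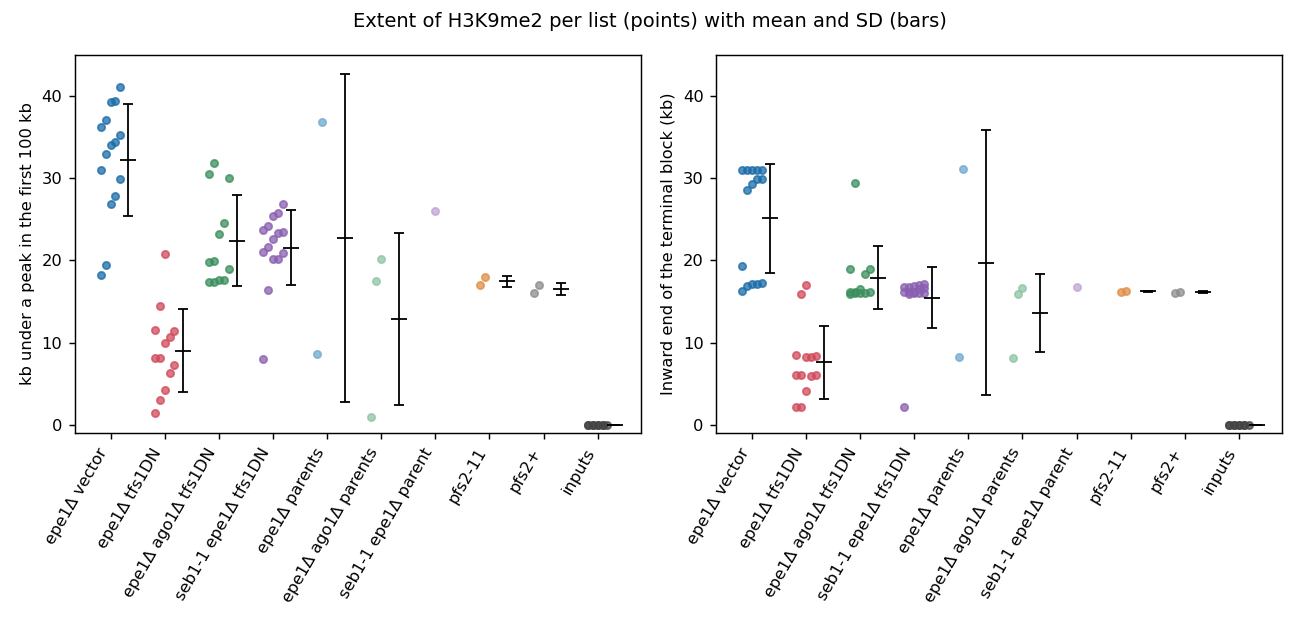
Length under peaks (kb) and inward end of the block that holds the outermost peak (kb), with a point per list and bars for the group mean and SD. Vector isolates covered 18.3 to 41.1 kb and epe1Δ tfs1DN isolates 1.49 to 20.8 kb, and the vector points split into blocks ending near 16 to 19 kb and blocks ending near 29 to 31 kb.

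Reach was read as the inward end of the block that holds the outermost peak, with peaks less than 1 kb apart joined. The block had to start within the outer 10 kb, but not at the end itself. In epe1Δ tfs1DN isolates it started at 0.404 to 4.07 kb, so their reach is no unbroken length from the end. In vector isolates this block ended at 16.3 kb (lowest), 29.3 kb (median) and 31.0 kb (highest), with a mean of 25.1 ± 6.62 kb (SD, n = 15). Of these blocks, 6 ended between 16.3 and 19.3 kb and 9 between 28.5 and 31.0 kb. The first set of ends lay within SPBC1348.06C or between it and SPBC1348.07, and the second past the phospholipase gene SPBC1348.10C, near where the repeated run also ends (29.488 kb).

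In epe1Δ tfs1DN isolates the block ended at 2.12 kb (lowest), 6.04 kb (median, within SPBC1348.01) and 17.0 kb (highest), with a mean of 7.59 ± 4.48 kb (SD, n = 13). For epe1Δ tfs1DN isolates 7 and 8 the block was a short peak ending at 2.12 and 2.14 kb, although they covered 11.4 and 10.7 kb of the window. In epe1Δ ago1Δ tfs1DN isolates the block ended at 15.9 kb, 16.1 kb and 29.4 kb (mean 17.9 ± 3.81 kb, SD, n = 12). In seb1-1 epe1Δ tfs1DN isolates it ended at 2.12 kb, 16.1 kb and 17.1 kb (mean 15.5 ± 3.72 kb, SD, n = 15). The median block of both groups thus ended within SPBC1348.06C, a gene for a Vel1p domain-containing protein.

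Reach was shorter in epe1Δ tfs1DN than in vector (difference -17.5 kb, permutation test, adjusted p = 3e-05), with epe1Δ ago1Δ tfs1DN at -7.22 kb (adjusted p = 0.005) and seb1-1 epe1Δ tfs1DN at -9.62 kb (adjusted p = 4.5e-05). It was 10.3 kb longer in epe1Δ ago1Δ tfs1DN than in epe1Δ tfs1DN (adjusted p = 3e-05) and 7.88 kb longer in seb1-1 epe1Δ tfs1DN (adjusted p = 6e-05). The last 2 groups differed by -2.40 kb (adjusted p = 0.0984), which did not pass the test.

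The position by which 90% of the covered bases lay did not follow covered length, and short inner peaks weigh more in it where little else is covered. It was 51.0 ± 11.5 kb in vector, 62.5 ± 9.84 kb in epe1Δ tfs1DN, 40.2 ± 19.5 kb in epe1Δ ago1Δ tfs1DN and 46.8 ± 1.21 kb in seb1-1 epe1Δ tfs1DN isolates (SD, n = 15, 13, 12 and 15). It was farther inward in epe1Δ tfs1DN than in vector by 11.4 kb (permutation test, adjusted p = 3e-05), and the sign turned to -9.57 kb once peaks shorter than 1 kb were dropped. epe1Δ ago1Δ tfs1DN and seb1-1 epe1Δ tfs1DN lay nearer the end than epe1Δ tfs1DN (differences -22.3 and -15.7 kb, adjusted p = 0.000229 and 3e-05), and those differences were -0.738 and 0.957 kb with the short peaks dropped. The other 3 pairs did not pass the test (adjusted p 0.107 to 0.207).

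The spread of covered length among isolates was not shown to differ between groups. The mean absolute deviation from the group median was 5.10 kb in vector, 3.72 kb in epe1Δ tfs1DN, 4.26 kb in epe1Δ ago1Δ tfs1DN and 2.97 kb in seb1-1 epe1Δ tfs1DN. None of 6 pairs passed the permutation test (unadjusted p 0.177 to 0.726, adjusted p = 0.726 for each).

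**Figure D3:**
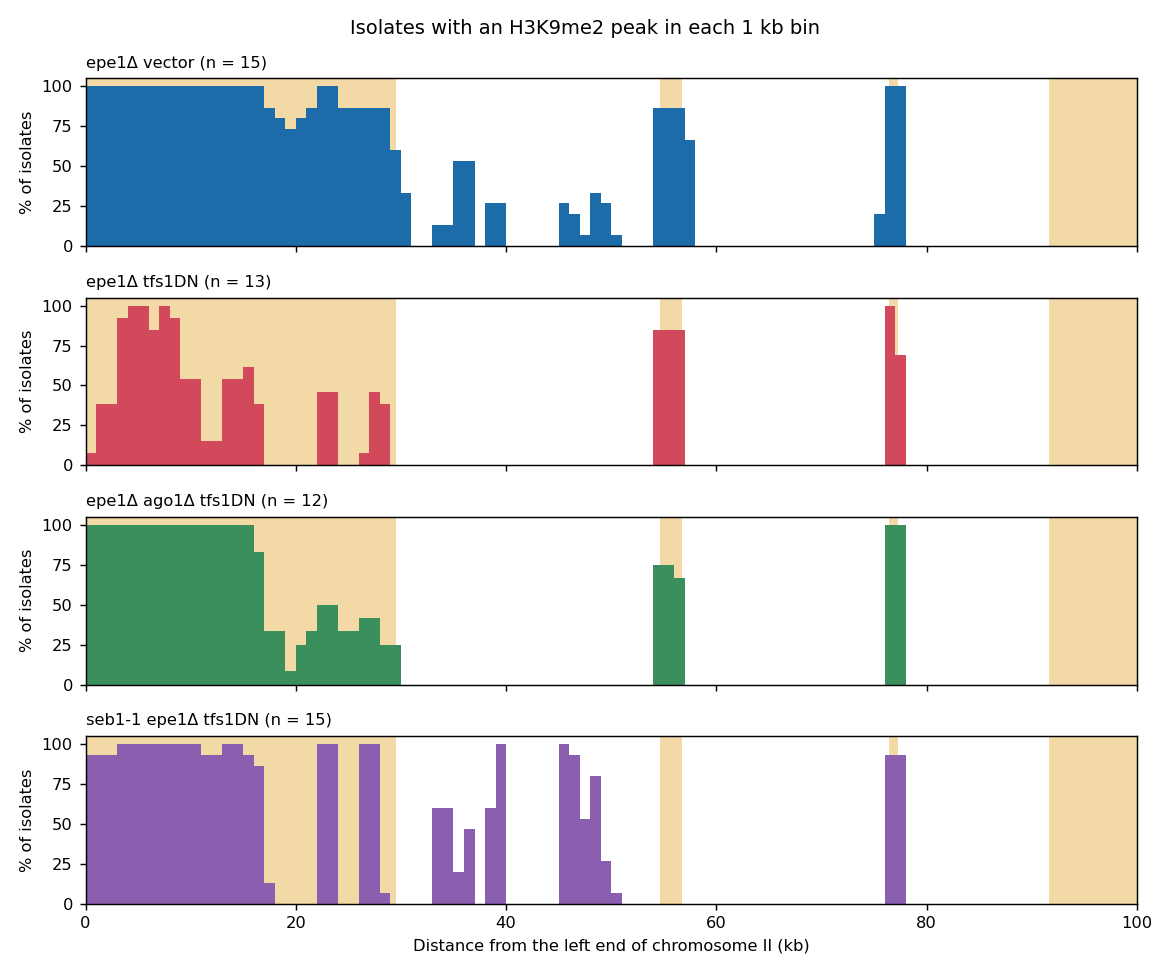
Percentage of isolates with a peak in each 1 kb bin of the window, for the 4 isolate groups, against the distance from the left end (kb), with runs of repeated sequence shaded. Every vector and epe1Δ ago1Δ tfs1DN isolate had a peak in each bin of the outer 16 kb, epe1Δ tfs1DN isolates filled these bins in part, and seb1-1 epe1Δ tfs1DN isolates had peaks between 33 and 51 kb but none near 54 to 57 kb.

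The stretches that every isolate of a group shared differed in form. In vector isolates 18.2 kb were under a peak in all 15, mostly the first 16.3 kb and the stretch from 76.04 to 77.68 kb. epe1Δ ago1Δ tfs1DN isolates shared 17.0 kb, from the end to 15.9 kb and from 76.3 to 77.5 kb. seb1-1 epe1Δ tfs1DN isolates shared 6.25 kb in 9 pieces, and epe1Δ tfs1DN isolates 0.782 kb in 4 pieces, of which the outermost lay at 4.07 to 4.13 kb and the innermost at 76.7 to 76.9 kb. The first peak of epe1Δ tfs1DN isolates started at 3.70 kb in the median isolate, whereas in vector and epe1Δ ago1Δ tfs1DN isolates it started at the first base in every list.

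Gaps were most numerous in seb1-1 epe1Δ tfs1DN isolates. After joining peaks less than 1 kb apart, vector isolates had 4.2 gaps on average, epe1Δ tfs1DN 4.15, epe1Δ ago1Δ tfs1DN 2.33 and seb1-1 epe1Δ tfs1DN 7.0. The longest gap was 25.2 ± 11.6 kb in vector, 37.8 ± 14.2 kb in epe1Δ tfs1DN, 38.1 ± 14.3 kb in epe1Δ ago1Δ tfs1DN and 26.5 ± 4.10 kb in seb1-1 epe1Δ tfs1DN isolates (SD, not tested). Inward of 77.725 kb no list had a peak in the window, and the next peak of any list started at 111.9 kb. The curated site HOOD-16, the stretch of the study's list of known H3K9me sites that falls in this window, was overlapped by 0 peaks in 65 lists.

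Of the 32 protein-coding genes in the window, 19 were overlapped by a peak in at least 1 list, as were 24 of 54 lncRNA genes and 1 of 4 pseudogenes. None of the galactose genes lies in it. The 13 without a peak were eno102 (enolase), cmt2 (catechol O-methyltransferase), aes1, 4 other genes between fex2 and SPBPB21E7.09, and the 6 SPBPB10D8 genes farthest inward, of which 5 encode transporters. Peaks carry no strand, and the same peak counts for every gene it overlaps, whether genes overlap, as grt1 and fah1 do, or lie apart. In vector isolates the peak over SPBC1348.01 started at base 1 and ended at base 16292 to 30300, over several genes. Numbers of genes called below are therefore not numbers of separate domains, and neighbouring genes are not independent.

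**Figure D4:**
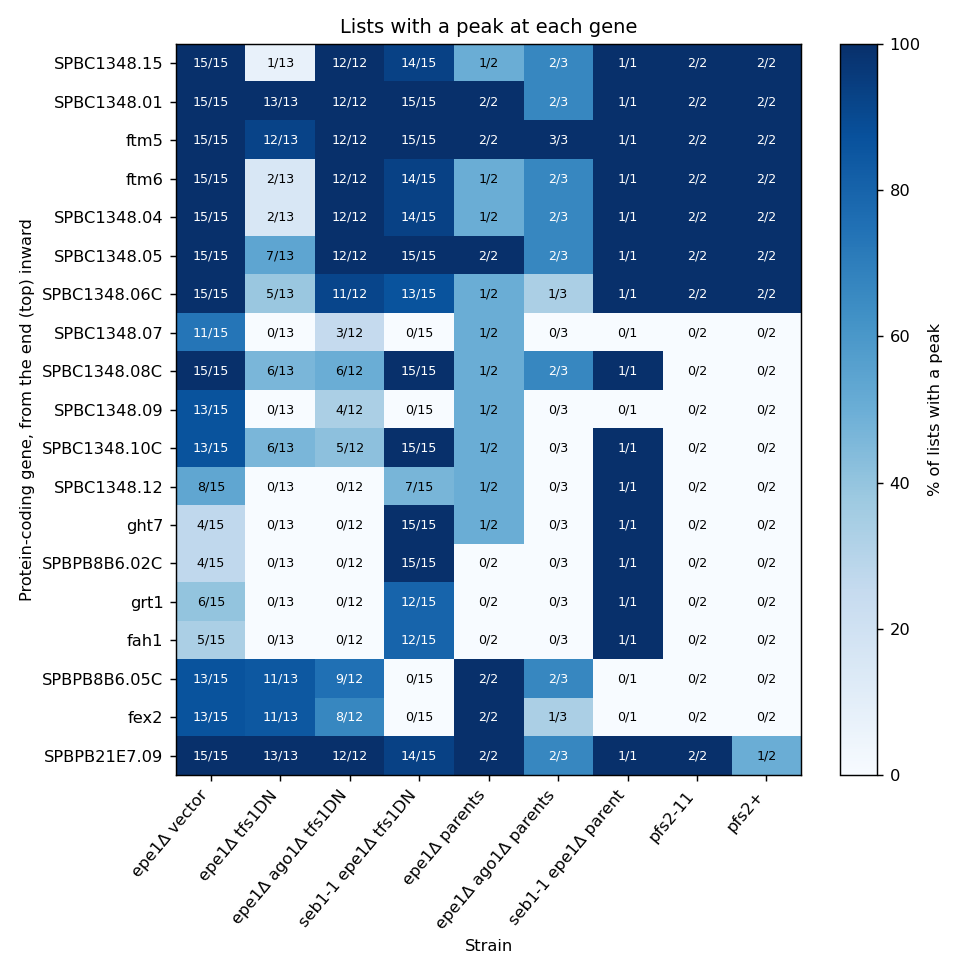
Heat map of the number of lists with a peak overlapping each of the 19 genes, in order from the end (rows), for each genotype group (columns). The outermost genes were covered in all vector isolates, ght7 and SPBPB8B6.02C in all seb1-1 epe1Δ tfs1DN isolates, and SPBPB21E7.09 in 54 of 55 isolates.

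The 3 genes nearest the end, SPBC1348.15, SPBC1348.01 and ftm5, encode 2 uncharacterized proteins and a protein with transmembrane helices. SPBC1348.15 had a peak in 15 of 15 vector, 1 of 13 epe1Δ tfs1DN, 12 of 12 epe1Δ ago1Δ tfs1DN and 14 of 15 seb1-1 epe1Δ tfs1DN isolates. SPBC1348.01 had one in all 55 isolates, and ftm5 in 54, missing from 1 epe1Δ tfs1DN isolate. The fold of the peak over SPBC1348.01 was 22.9 to 46.5 in vector (median 36.0), 3.01 to 5.84 in epe1Δ tfs1DN (median 4.81), 6.64 to 11.4 in epe1Δ ago1Δ tfs1DN (median 8.44) and 4.48 to 11.6 in seb1-1 epe1Δ tfs1DN (median 7.20). Each fold is a mean over the whole listed peak, with median edges at II:1-19985 in vector and II:5040-8298 in epe1Δ tfs1DN isolates. The folds thus average unlike stretches and are not the signal at this gene alone. The vector folds did not overlap those of any other group, but listed chromosome coverage was lowest in that group too, and folds were not tested.

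Genes were compared by the number of isolates with a peak, with Fisher's exact test, two-sided and adjusted by Benjamini-Hochberg over all genes of the genome with a peak in either group. In epe1Δ tfs1DN against vector, 10 of 19 genes of the window were called lower, where 7.13% of the 743 genes tested genome-wide were, and 0 of 19 were called higher, where 30.3% were. The lower genes were SPBC1348.15 (adjusted p = 1.87e-05), ftm6, the methyltransferase gene SPBC1348.04 and the dehydrogenase gene SPBC1348.09 (each adjusted p = 5.74e-05), and SPBC1348.07 (adjusted p = 0.000531). SPBC1348.06C (0.00178), the glycoprotein gene SPBC1348.08C (0.0052), SPBC1348.12, a DNA-binding transcription factor gene (0.00855), the transporter gene SPBC1348.05 (0.0139) and grt1, a transcription factor gene (0.0477), followed by the same adjusted p. By class, among genes with a peak in either group, 1 of 4 transporter genes, 2 of 6 other enzyme genes and 7 of 9 remaining genes were lower. Shares by class were not taken genome-wide, and the classes were not tested against each other.

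ftm6 and SPBC1348.04 had a peak in 15 of 15 vector isolates and in 2 of 13 epe1Δ tfs1DN isolates. SPBC1348.09 had one in 13 of 15 vector isolates and SPBC1348.07 in 11, against 0 of 13 epe1Δ tfs1DN isolates for each. SPBC1348.05 had one in 15 of 15 and 7 of 13. These genes lie in the outer 29 kb, where every epe1Δ tfs1DN isolate kept peaks but with breaks between them.

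In epe1Δ ago1Δ tfs1DN against vector, 3 of 19 genes were called lower, where 21% were genome-wide, and 0 higher, where 1.61% were. The share of window genes called lower is near that of the genome. They were SPBC1348.08C (6 of 12 against 15 of 15 isolates, Fisher's exact test, adjusted p = 0.0161), SPBC1348.12 (0 of 12 against 8 of 15, adjusted p = 0.0161) and SPBC1348.09 (4 of 12 against 13 of 15, adjusted p = 0.0339). Against epe1Δ tfs1DN, 5 of 14 genes were higher in epe1Δ ago1Δ tfs1DN, where 3.37% of 712 were, and 0 lower, where 28.2% were. Those were SPBC1348.15 (adjusted p = 0.000137), ftm6 and SPBC1348.04 (0.000342 each), SPBC1348.06C (0.041) and SPBC1348.05 (0.0472). Without epe1Δ tfs1DN isolate 9, the isolate with the least covered length, 3 genes were called higher.

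seb1-1 epe1Δ tfs1DN isolates had peaks in the stretch from 30 to 50 kb, which holds only unique sequence. All 15 had some, with 0.988 kb (lowest), 3.04 kb (median) and 5.78 kb (highest) covered there, against 9 of 15 vector isolates (mean 1.46 ± 2.08 kb, SD, highest 6.24 kb) and 0 of 13 epe1Δ tfs1DN and 0 of 12 epe1Δ ago1Δ tfs1DN isolates. The genes with peaks there were SPBC1348.12, ght7, a hexose transporter gene, SPBPB8B6.02C, a urea transporter gene, and grt1 with fah1, an acetamidase gene. SPBC1348.12 had a peak in 7 of 15 seb1-1 epe1Δ tfs1DN and 8 of 15 vector isolates. The seb1-1 epe1Δ parent, with no tfs1DN, covered 4.95 kb of the same stretch and had a peak at each of these genes.

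ght7 had a peak in 15 of 15 seb1-1 epe1Δ tfs1DN isolates, with median edges at II:38989-39796 and folds of 3.01 to 3.62. It had one in 4 of 15 vector isolates, at folds of 3.12 to 3.44, and in 0 of the 13 epe1Δ tfs1DN and 12 epe1Δ ago1Δ tfs1DN isolates. SPBPB8B6.02C gave the same counts, with median edges at II:45253-46412 in the seb1-1 epe1Δ tfs1DN isolates and folds of 3.06 to 3.78. All these folds stood close to 3.00, the lowest fold listed in the window. grt1 and fah1 had one in 12 of 15 seb1-1 epe1Δ tfs1DN isolates, and in 6 and 5 of 15 vector isolates.

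In seb1-1 epe1Δ tfs1DN against vector, 2 of 19 genes were called higher, where 18.7% of 203 were genome-wide, and 4 lower, where 16.3% were. ght7 and SPBPB8B6.02C were higher (Fisher's exact test, adjusted p = 0.000216 each), and SPBPB8B6.05C, fex2 and SPBC1348.09 (1.32e-05 each) and SPBC1348.07 (0.000216) were lower. With only peaks of at least 1 kb, ght7 turned to -13.3 percentage points of isolates.

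Against epe1Δ tfs1DN, 12 of 17 genes were higher in seb1-1 epe1Δ tfs1DN, where 8.12% of 714 were, and 2 lower, where 30.1% were. The higher genes were ght7 and SPBPB8B6.02C (Fisher's exact test, adjusted p = 1.12e-06 each), SPBC1348.15 (0.000117), grt1 and fah1 (0.000166 each), ftm6 and SPBC1348.04 (0.000384 each), and SPBC1348.08C and SPBC1348.10C (0.00495 each). Among the rest, SPBC1348.05 had an adjusted p of 0.0136, SPBC1348.12 of 0.0203 and SPBC1348.06C of 0.0427. SPBPB8B6.05C and fex2 were lower (adjusted p = 5.40e-05 each). By class, among genes with a peak in either group, this was 3 of 4 transporter, 3 of 5 other enzyme and 6 of 8 remaining genes higher.

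Against epe1Δ ago1Δ tfs1DN, 7 of 19 genes were higher in seb1-1 epe1Δ tfs1DN, where 32.8% were, and 2 lower, where 10.2% were, shares near those of the genome. They were ght7 and SPBPB8B6.02C (Fisher's exact test, adjusted p = 4.65e-07 each), grt1 and fah1 (0.000139 each), SPBC1348.10C (0.00234), SPBC1348.08C (0.00774) and SPBC1348.12 (0.0199). SPBPB8B6.05C (0.000171) and fex2 (0.00068) were lower.

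At SPBPB8B6.05C and fex2 the seb1-1 epe1Δ tfs1DN isolates had no peak. A peak lay over SPBPB8B6.05C in 13 of 15 vector, 11 of 13 epe1Δ tfs1DN, 9 of 12 epe1Δ ago1Δ tfs1DN and 0 of 15 seb1-1 epe1Δ tfs1DN isolates. Its median edges were II:54227-57109 in vector and II:54661-56719 in epe1Δ tfs1DN isolates. The isolates without it were vector 11 and 15, epe1Δ tfs1DN 3 and 5, and epe1Δ ago1Δ tfs1DN 3, 6 and 12. Vector 11 and 15 were also the isolates of that group with the least covered length.

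**Figure D5:**
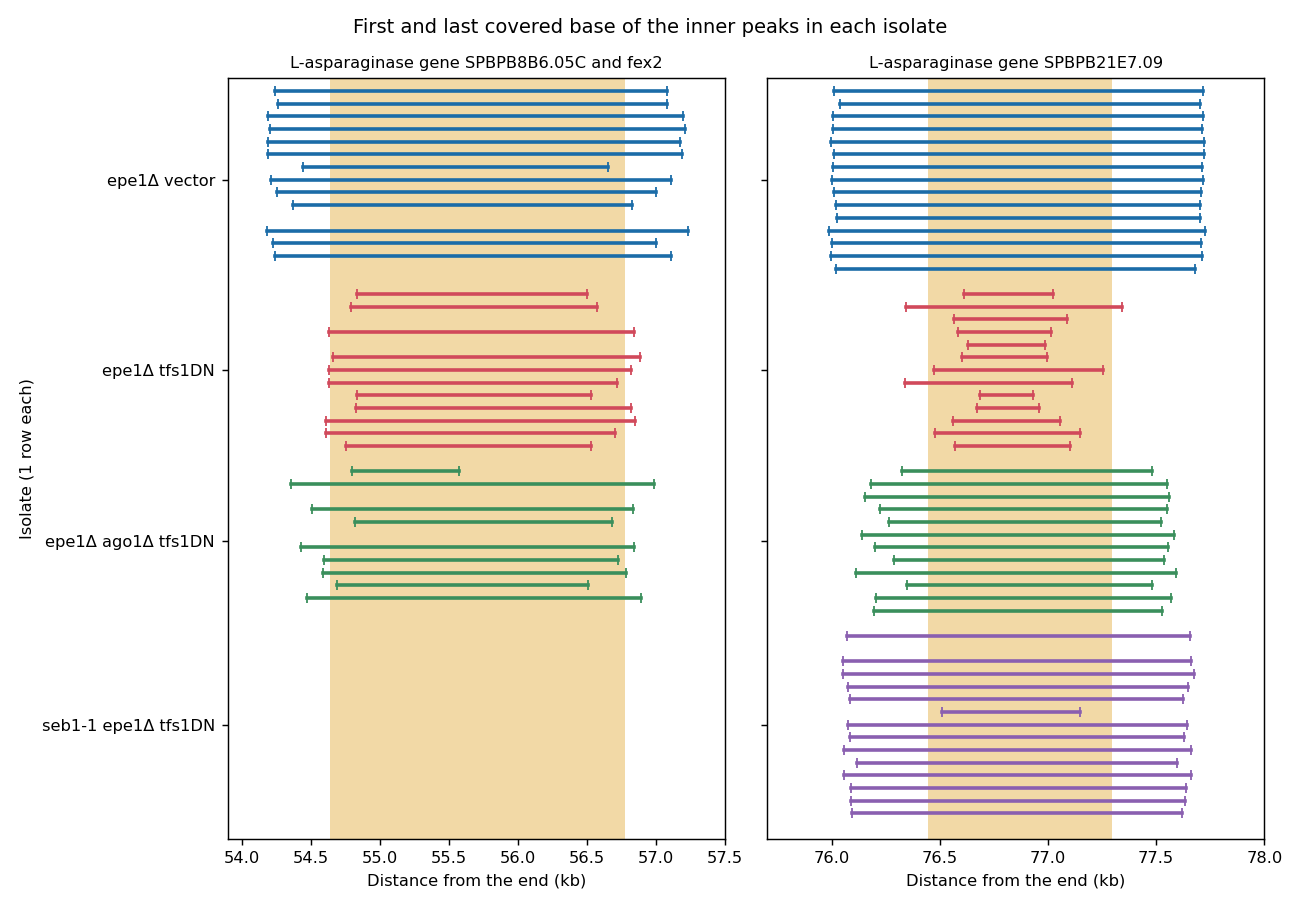
First and last covered base (kb from the left end) of the peaks near 54 to 57 kb and near 76 to 78 kb in each isolate that had them, with the repeated run shaded. Vector peaks extended past the shaded run on both sides, except that of isolate 7, which ended inside the run at 56.651 kb, and epe1Δ tfs1DN peaks stayed close to it.

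The edges of these inner peaks differed between groups in relation to the repeated run. Of the bases under the fex2 peak, 74.5 ± 6.64% were repeated in vector (SD, n = 13), 97.3 ± 2.86% in epe1Δ tfs1DN (SD, n = 11) and 92.8 ± 7.54% in epe1Δ ago1Δ tfs1DN (SD, n = 9). In every isolate with this peak, a peak also lay over the copy at the left end of chromosome I (fex1 and SPAC977.12, 55.28 kb from that end), and in the isolates of these 3 groups that lacked it the copy had none. In 2 seb1-1 epe1Δ tfs1DN isolates and in their parent the copy had a peak and this end had none. Which of the copies the reads came from was not tested.

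SPBPB21E7.09, the innermost gene with a peak, was covered in 15 of 15 vector, 13 of 13 epe1Δ tfs1DN, 12 of 12 epe1Δ ago1Δ tfs1DN and 14 of 15 seb1-1 epe1Δ tfs1DN isolates. It encodes an L-asparaginase, which splits asparagine into aspartate and ammonia. Median edges were II:76005-77713 in vector and II:76569-77054 in epe1Δ tfs1DN isolates, with 1.70 ± 0.0213 kb and 0.531 ± 0.220 kb covered (SD, n = 15 and 13). Vector edges were tight, since all first bases fell between 75.988 and 76.036 kb and all last bases between 77.681 and 77.725 kb.

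Fold at SPBPB21E7.09 was 13.7 to 29.3 in vector (median 20.7), 3.09 to 4.29 in epe1Δ tfs1DN (median 3.52), 4.83 to 6.96 in epe1Δ ago1Δ tfs1DN (median 5.81) and 3.49 to 11.6 in seb1-1 epe1Δ tfs1DN isolates (median 8.89). Bases that start a repeated 50-mer made up 43.9 ± 0.554% of the peak in vector and 85.5 ± 5.11% in epe1Δ tfs1DN (SD, n = 15 and 13). The related gene SPAC186.03, 42.96 kb from the right end of chromosome I, shares 58.3% of the 50-mers, and it had a peak in 0 vector, 13 epe1Δ tfs1DN, 0 epe1Δ ago1Δ tfs1DN and 12 seb1-1 epe1Δ tfs1DN isolates. In vector and epe1Δ ago1Δ tfs1DN isolates the peak was thus listed here and not at SPAC186.03.

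Isolates were set beside the parents of their batch to ask how far the domain differs from that of the strain they came from. The epe1Δ parent of the vector batch covered 36.8 kb, and 4 of 15 vector isolates covered more. The parent of the larger epe1Δ tfs1DN batch covered 8.59 kb, near the mean of its 11 isolates (7.48 kb), with 4 above it. Both parents share a genotype, and they stood as far apart (36.8 and 8.59 kb) as the mean of the isolates of their batches (32.2 and 7.48 kb).

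The seb1-1 epe1Δ parent covered 26.0 kb, and 1 of 15 isolates covered more. The 3 epe1Δ ago1Δ parents covered 20.2, 17.4 and 0.901 kb, and 2 of 3, 5 of 5 and 4 of 4 isolates of their sets covered more. The 12 epe1Δ ago1Δ tfs1DN isolates covered 9.55 kb more than the 3 parents on average (22.4 ± 5.55 against 12.8 ± 10.4 kb, SD), which did not pass a two-sided exact permutation test (p = 0.0747). The parent at 0.901 kb decides the size: without it the difference was 3.58 kb (exact permutation p = 0.495).

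In strains with Epe1 at 37 °C the end was marked too. The pfs2-11 samples covered 17.95 and 16.98 kb and the pfs2+ samples 17.01 and 16.01 kb, a mean difference of 0.952 kb (two-sided exact permutation test, p = 0.667, where 0.333 is the smallest p that 2 against 2 allows). Blocks ended between 16.02 and 16.26 kb in all 4 samples. At SPBPB21E7.09 the fold was 18.8 and 9.05 in the pfs2-11 samples and 3.70 in a single pfs2+ sample, while the other had no peak there, and no peak lay over SPBC1348.07 to fex2 in either strain.

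Set against the ends most like it, this end had the least length under peaks of the 3 ends in every isolate of the 4 groups. The windows were counted from the ends of the assembly. The outermost genes here match sequence that starts 24.91 kb from the right end of chromosome II. SPBC1348.08C to SPBC1348.10C, within the outer 29.488 kb here, match sequence that starts 41.89 kb from the left end of chromosome I. Equal distances thus do not hold matching sequence at the 3 ends, and the part of this in the differences was not tested. Vector isolates had 77.4 ± 14.5 kb at the left end of chromosome I and 51.4 ± 6.18 kb at the right end of chromosome II, so this end differed by -45.2 and -19.2 kb (SD, n = 15, two-sided permutation test by sign flips, exact, adjusted over 8 tests, p = 0.000122 each). Over the 4 groups the differences were -45.2 to -18.9 kb against chromosome I left and -19.8 to -16.3 kb against chromosome II right, with exact permutation p adjusted to 0.000122 to 0.000488. Inputs had peaks at the other ends but 0 here. Dropping peaks that overlap an input peak removes the whole peak at any overlap. It could therefore take length only from the other ends, and cannot decide whether the order depends on input signal. With those peaks dropped, the order turned for the vector isolates (18.1 and 27.2 kb more at this end) and for the seb1-1 epe1Δ tfs1DN isolates (5.57 and 3.59 kb more). In epe1Δ tfs1DN isolates it kept its direction (-20.4 and -4.14 kb), and in epe1Δ ago1Δ tfs1DN isolates it was -12.8 kb against chromosome I left, past no threshold, and turned to 21.1 kb against chromosome II right.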

How the data were processed

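H3K9me2 chromatin immunoprecipitation (antibody abcam ab1220) and input libraries were sequenced by the authors. Per the study's methods, adaptors were removed, short reads omitted, reads aligned with Bowtie and reporting of a single best site for reads that match several, and coverage smoothed. Submitters' processing notes also name SAMtools, bedtools and build ASM294v2, with versions not given in the sources used here. The deposited peak lists give position and signal (mean coverage of the peak and of its chromosome), unscaled between samples and not corrected by input. In many lists the chromosome coverage is no plain mean, so folds were not tested between groups. Of 75 lists, 1 (an epe1Δ parent) was empty and was not used. The 5 RNA polymerase II samples were not analysed here. The isolate numbered 13 in epe1Δ tfs1DN carries another number in its deposited name.

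Length under peaks, reach (peaks under 1 kb apart joined) and the 90% position were computed per list with Python 3.11.15, numpy 2.4.6, pandas 2.3.3 and scipy 1.17.1, drawn with matplotlib 3.10.9, and checked on simulated data. Groups were compared by permutation of isolates (100000 resamples, or all permutations for the small groups and for sign flips), genes by Fisher's exact test with at least 1 bp of overlap, all adjusted by Benjamini-Hochberg at 0.05. P-values measure the spread between isolates, and each batch (shared input and parent) held isolates of a single group. Members and gene lists were chosen with earlier results of these data known. Named were the outermost 3 genes with a peak, those at the median block end, those called, the fixed classes and those at recurrent gaps. Gene names came from RefSeq ASM294v3 by position. Its chromosome lengths fit the peaks, but identity with ASM294v2 could not be checked, so sequences were taken by gene model. Stretches of 180 bases upstream of genes replaced the planned stretches at domain edges for that reason. Repeats were 50-mers found more than once in that assembly. Runs hold all bases of such 50-mers, while unique lengths and repeated shares of peaks go by the 50-mer that starts at each base. Alternatives were shorter windows, other joining distances, minimum length, fold and overlap, medians, unique bases, removal of peaks that overlap an input peak, single batches and sets, and left-out isolates.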

Additional observations from a re-analysis of the deposited data

How the results depend on the processing

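Here ago1Δ stands for epe1Δ ago1Δ tfs1DN and seb1-1 for seb1-1 epe1Δ tfs1DN. Length under peaks and contiguous reach kept direction and threshold side in most alternatives (58 of 63 and 60 of 63), the 90% position in 40 of 57. For length, seb1-1 minus ago1Δ turned to 2.78 kb by medians, 2.97 kb over unique bases, 0.602 kb in the first 50 kb and 0.137 kb without seb1-1 isolate 2 (left out after seeing the data), and seb1-1 minus vector to 0.106 kb over unique bases. For reach with touching peaks only, seb1-1 minus epe1Δ tfs1DN lost its call at 4.57 kb and seb1-1 minus ago1Δ gained one at -7.26 kb, as it did with peaks under 5 kb apart joined (-4.03 kb). Reach has no value over unique bases. For the 90% position, peaks of at least 1 kb gave -9.57 (epe1Δ tfs1DN minus vector), -0.738 (ago1Δ minus epe1Δ tfs1DN) and 0.957 kb (seb1-1 minus epe1Δ tfs1DN). Folds at or over the median gave 2.15 (epe1Δ tfs1DN minus vector), -15.2 (seb1-1 minus vector), -12.4 (ago1Δ minus epe1Δ tfs1DN) and -4.97 kb (seb1-1 minus ago1Δ). Medians gave -8.92 (seb1-1 minus vector) and -8.83 kb (seb1-1 minus ago1Δ), and leaving out ago1Δ set 2 gave -16.2 (ago1Δ minus vector) and 12.0 kb (seb1-1 minus ago1Δ). Unique bases gave -0.361, 0.318 and -4.27 kb for epe1Δ tfs1DN, ago1Δ and seb1-1 minus vector, 0.679 and -3.90 kb for ago1Δ and seb1-1 minus epe1Δ tfs1DN, and -4.58 kb for seb1-1 minus ago1Δ. The spread of seb1-1 minus epe1Δ tfs1DN turned to 0.280 kb with the larger epe1Δ tfs1DN batch alone. ago1Δ isolates minus parents ranged from 3.58 to 13.2 kb when parents were left out in turn (exact permutation p = 0.033 without parent 1) and gave 10.7 kb with peaks of at least 1 kb (p = 0.0154). Against other ends, dropping peaks that overlap an input peak gave 18.1 and 27.2 kb in vector, -12.8 and 21.1 kb in ago1Δ and 5.57 and 3.59 kb in seb1-1 isolates (chromosome I left, chromosome II right). That setting drops whole peaks and could take length only at the other ends, where inputs had peaks.

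Genes called higher in seb1-1 fell to 1 (against vector) and 3 (against ago1Δ) with 50% of the gene covered, to 1 and 2 with folds at or over the median (6 against epe1Δ tfs1DN), and to 1 and 1 with peaks of at least 1 kb. Folds at or over the median left 0 lower in ago1Δ against vector (Fisher's exact test). Without epe1Δ tfs1DN isolate 9, chosen after seeing the data, 3 were higher in ago1Δ. Single genes that turned, in percentage points of isolates, were at 50% covered SPBC1348.10C (17.9, ago1Δ minus epe1Δ tfs1DN), SPBC1348.08C (-4.10 and -15, seb1-1 minus epe1Δ tfs1DN and minus ago1Δ), SPBPB21E7.09 (55.9, seb1-1 minus epe1Δ tfs1DN) and SPBC1348.06C (6.67, seb1-1 minus ago1Δ). With folds at or over the median they were SPBC1348.10C (-53.3, 2.56, -10.8 and -13.3 for seb1-1 minus vector, ago1Δ minus epe1Δ tfs1DN, seb1-1 minus epe1Δ tfs1DN and seb1-1 minus ago1Δ) and SPBPB21E7.09 (24.1). With peaks of at least 1 kb they were ght7 (-13.3, seb1-1 minus vector), SPBC1348.10C (10.9), SPBC1348.08C (-15.4 and -33.3) and SPBPB21E7.09 (79.0), and without seb1-1 isolate 2 SPBC1348.06C (1.19, seb1-1 minus ago1Δ). The causes were not tested.

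Isolate numbers do not pair the groups (median correlation of deviations over bins of 1 kb -0.144 to 0.0709), and with the number as a block epe1Δ tfs1DN minus vector was -24.5 kb of length (adjusted p = 0.0011), with no other call changed for length, reach or the 90% position. Blocking by set gave 9.71 kb for ago1Δ isolates minus parents (p = 0.0583), and pairing the pfs2 replicates left 0.952 kb (exact p = 0.5, the smallest that 2 pairs allow). Whether low listed coverage hides or adds peaks near a fold of 3.00 was not tested.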
